A study of Homo sapiens with 6 samples.

Results

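The genes of 4 secreted proteins of mucus and antimicrobial defence were followed across 6 single-channel Affymetrix arrays of Caco-2 cells, a human colon carcinoma line whose monolayers come to resemble absorptive epithelium. The 4 genes ZG16, TFF1, TFF2 and LYZ were taken by gene symbol, and the set was chosen by its difference from scramble in earlier results of these arrays, where all were lower with hairpins against FAM46A. They are 4 of 14884 named genes, and 5 of 48144 probe sets, since LYZ had 2 probe sets and the other genes 1 each. All of the differences against scramble below are therefore a description and carry no test. The difference between the hairpins is a separate contrast and was tested.

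The cells carried FAM46A-shRNA#2, FAM46A-shRNA#4 or scramble shRNA, all delivered by lentivirus to cells that were not yet confluent, and were harvested 17 days later. FAM46A, also named TENT5A, is one of the non-canonical poly(A) polymerases, and the study asked which genes its depletion affects. Each group held 2 arrays, labelled biological replicates of the same cell line. FAM46A itself was not analysed here, so how far its transcript was lowered is not known and the groups are those of the labels. Every value is a log2 value set against the median of that probe set across all 6 arrays, so the level of a gene is not known and values of different genes cannot be set against each other as levels. The base of the logarithm is not stated, and folds and percentages of scramble hold only if it is 2, as assumed here. The median of 6 values lies midway between the middle pair, so a group in the middle sits at or near 0. Errors after ± are standard errors (SE) of a limma fit of all 6 arrays (n = 2 per group), and the small number of arrays limits their precision.

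ZG16 is a lectin-like protein of goblet cell secretory granules that enters mucus and binds the peptidoglycan of Gram-positive bacteria. TFF1 and TFF2 are trefoil peptides, small proteins folded by disulfide bonds that resist proteolysis and are secreted with mucins, where they take part in repair of the epithelial surface. Both are best known from the stomach, TFF1 from surface mucous cells and TFF2 from mucous neck and gland cells, while the related TFF3 is the trefoil peptide of intestinal goblet cells. LYZ encodes lysozyme, which cleaves bacterial peptidoglycan and is made by Paneth cells at the crypt base and by macrophages and neutrophils. Caco-2 is used mainly as a model of absorptive cells.

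**Figure D1:**
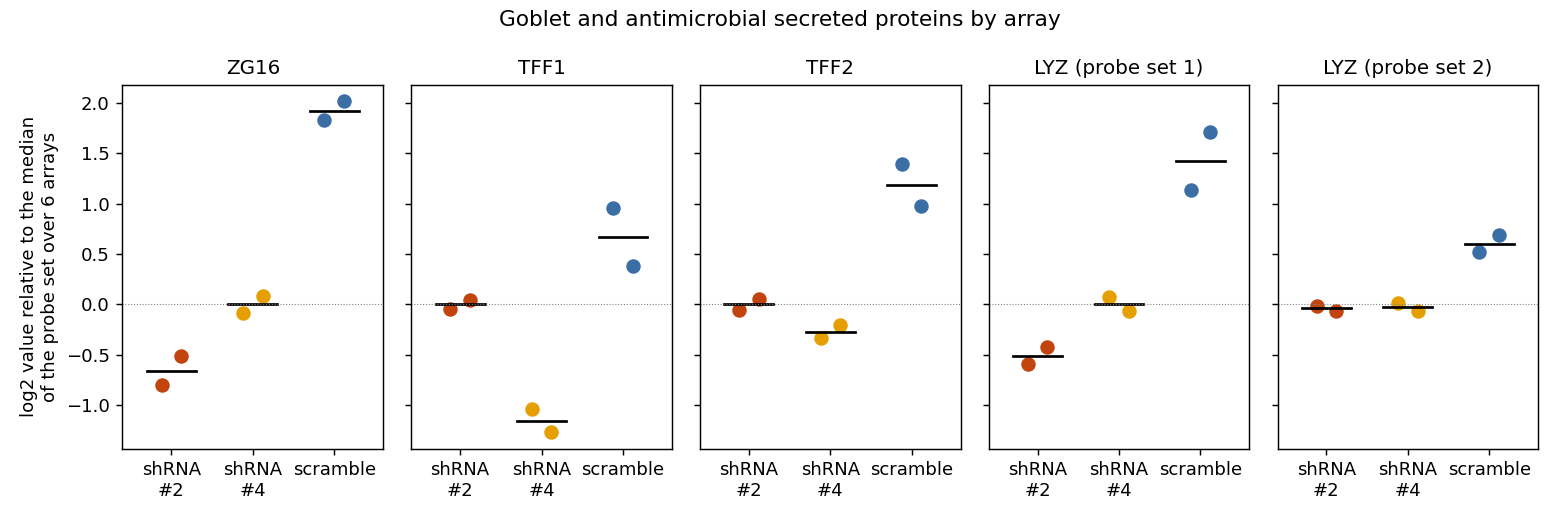
Log2 values relative to the median of each probe set over 6 arrays (vertical axis) for the 5 probe sets of ZG16, TFF1, TFF2 and LYZ, with the groups shRNA#2, shRNA#4 and scramble along the horizontal axis. Points are single arrays and lines are means of 2 arrays. In each panel both scramble arrays lie above all 4 hairpin arrays, and shRNA#4 is the lowest group for TFF1 and TFF2 while shRNA#2 is the lowest for ZG16.

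ZG16 had the largest difference of the 4 genes for the mean of both hairpins. It stood at -0.80 and -0.51 with shRNA#2 and at -0.08 and 0.08 with shRNA#4, against 1.83 and 2.01 with scramble. The 3 groups did not overlap, and the order was scramble, then shRNA#4, then shRNA#2. Against scramble ZG16 differed by -2.58 ± 0.12 with shRNA#2, which left 16.8% of the scramble signal, and by -1.92 ± 0.12 with shRNA#4, which left 26.4%. For the mean of both hairpins the difference was -2.25 ± 0.10, and ZG16 ranked 6 of 14884 genes by the size of the fall. The closest hairpin array lay 1.74 below the lower scramble array. With shRNA#4 alone ZG16 and TFF1 were close, and TFF1 differed more than ZG16 after quantile normalization (-1.77 for TFF1 and -1.39 for ZG16) and without replicate 2 of scramble (-2.10 and -1.83).

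TFF1 had the other order. It stood at -0.04 and 0.04 with shRNA#2 and at -1.04 and -1.27 with shRNA#4, against 0.95 and 0.38 with scramble. The scramble arrays were 0.57 apart, while the median difference between scramble replicates over all genes was 0.072. The difference from scramble was -1.82 ± 0.18 with shRNA#4 (28.3% of scramble) and -0.67 ± 0.18 with shRNA#2 (62.9%). The shRNA#2 value depended on the scramble array used, at -0.38 without replicate 1 of scramble and at -0.95 without replicate 2.

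TFF2 stood at -0.05 and 0.05 with shRNA#2 and at -0.33 and -0.21 with shRNA#4, against 1.40 and 0.98 with scramble. Both hairpin groups lay well below scramble and close to each other. The difference was -1.19 ± 0.14 with shRNA#2 and -1.46 ± 0.14 with shRNA#4, and -1.32 ± 0.12 for their mean, a 2.50-fold lower signal. TFF2 was thus the more even of the trefoil pair, and TFF1 the one whose difference lay mostly with shRNA#4.

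LYZ was read by 2 probe sets that moved the same way by different amounts. The first stood at -0.59 and -0.42 with shRNA#2 and at 0.07 and -0.07 with shRNA#4, against 1.13 and 1.71 with scramble. The second stood at -0.01 and -0.07 with shRNA#2 and at 0.01 and -0.06 with shRNA#4, against 0.52 and 0.69 with scramble. Both had the scramble arrays on top, but the first differed from scramble by -1.93 (shRNA#2) and -1.42 (shRNA#4), and the second by -0.64 and -0.63. The second showed no order of the hairpins, whose arrays overlapped. Among the nearest numbered probe sets of genes with a known strand, 11 of 11 around the first belong to plus-strand genes and 8 of 8 around the second to minus-strand genes. LYZ is transcribed from the plus strand, and which strand the second probe set reads was not given. The average of both, used below as the value of the gene, was -1.29 ± 0.12 with shRNA#2 and -1.03 ± 0.12 with shRNA#4.

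In all 4 genes the 4 hairpin arrays lay below both scramble arrays, which 16.7% of all genes did. The choice of the genes fixes this count. The smallest gap between the lowest scramble array and the highest hairpin array was 0.34 in TFF1, against 0.92 in TFF2, 0.78 in the average of LYZ and 1.74 in ZG16. In RNA of a whole culture, fewer cells that make a transcript and less of it per cell cannot be told apart.

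**Figure D2:**
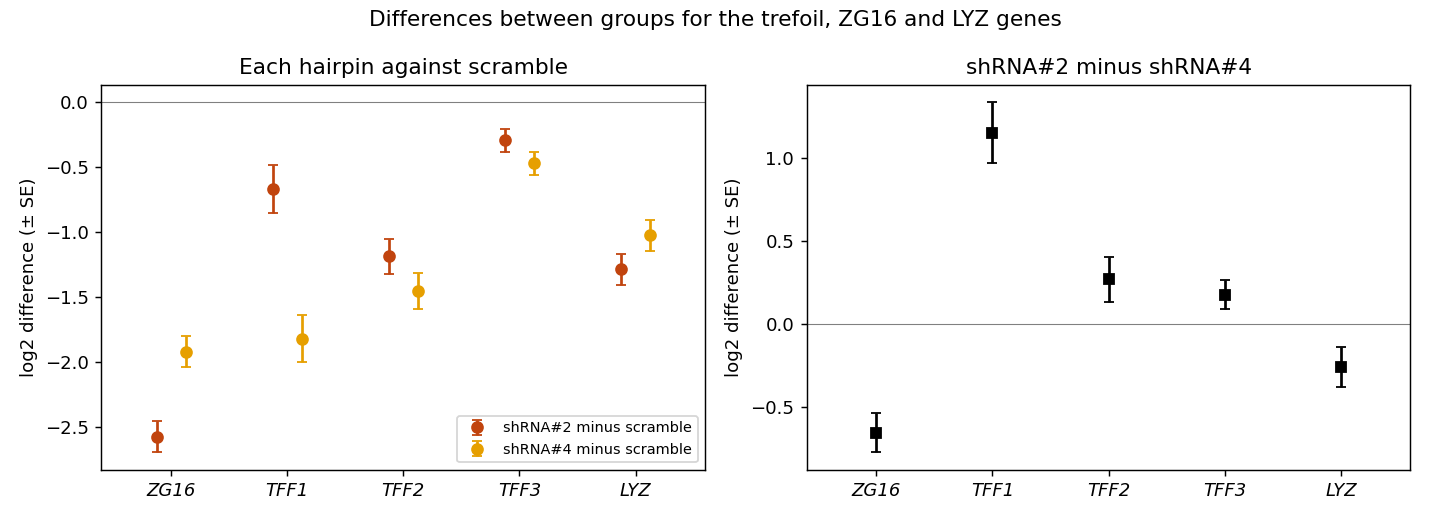
Log2 differences (vertical axes, points with ± SE of the limma fit) for ZG16, TFF1, TFF2, TFF3 and LYZ, with each hairpin minus scramble on the left and shRNA#2 minus shRNA#4 on the right. TFF1 lies at 1.15 on the right and ZG16 at -0.66, on opposite sides of 0.

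The hairpins were compared with each other over all 14884 genes, of which 15.3% differed at a Benjamini-Hochberg adjusted p under 0.05 in limma, 6.64% higher and 8.63% lower with shRNA#2. ZG16 was lower with shRNA#2 than with shRNA#4, by 0.66 on the log2 scale (a difference of -0.66 ± 0.12, adjusted p = 0.0172). TFF1 was higher with shRNA#2, by 1.15 ± 0.18 or 2.22-fold (adjusted p = 0.0118). These 2 differences ran in opposite directions. By the size of this difference in either direction TFF1 ranked 35 and ZG16 327 of 14884 genes.

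TFF2 (0.27 ± 0.14, adjusted p = 0.278) and LYZ (-0.26 ± 0.12, adjusted p = 0.232) did not pass the test. Their 95% intervals, -0.06 to 0.60 for TFF2 and -0.56 to 0.03 for LYZ, leave room for a difference in the direction of TFF1 or of ZG16. The arrays of the hairpins did not overlap in any of the 4 genes, with the probe sets of LYZ averaged. Without overlap, shRNA#2 was lower in ZG16 and LYZ, as in 29.9% of all genes. It was higher in TFF1 and TFF2, as in 24.6%. For LYZ the first probe set differed by -0.51 between the hairpins, while the arrays of the second overlapped (-0.02). The calls are close to the threshold. That of TFF1 ended without either shRNA#2 array or without replicate 2 of shRNA#4 (adjusted p up to 0.0672), and that of ZG16 without replicate 1 of shRNA#2 or replicate 2 of shRNA#4 (adjusted p up to 0.0872).

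The measured relatives of the 4 proteins moved less, as can follow from the choice of the 4 genes by their difference from scramble. TFF3 stood at -0.02 and 0.02 with shRNA#2 and at -0.11 and -0.24 with shRNA#4, against 0.40 and 0.18 with scramble. It was lower in the mean of both hairpins by 0.38 (-0.38 ± 0.076, adjusted p = 0.0140), a call that ended without replicate 1 of scramble (0.0683). With shRNA#4 alone TFF3 was lower (-0.47), a call that ended without replicate 2 of shRNA#4, and with shRNA#2 alone its -0.29 did not pass. The order of its groups was that of TFF1 and TFF2, though its hairpin difference of 0.18 was not called (adjusted p = 0.269). ZG16B, the paralog of ZG16 known from saliva and tears, stood at 0.03 ± 0.073 and was not called. Of the 8 measured relatives TFF3 was the only one called for the mean of both hairpins, where 25.4% of all genes were. The lysozyme-like genes LYZL4, LYZL6, SPACA3, SPACA5, LYG1 and LYG2 lay between -0.16 and 0.06. Whether the relatives are expressed in the cells cannot be read from centred values.

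TFF1, TFF2 and TFF3 lie side by side on chromosome 21, and the measured genes next to each of the 4 were examined in chromosome order. Of 18 neighbours 2 fell and 1 rose for the mean of both hairpins, against 10.6% and 14.8% of all genes. The falls were TFF3 and, beside LYZ, CPM (-0.37 ± 0.084), a membrane carboxypeptidase, whose call ended without replicate 2 of scramble or replicate 2 of shRNA#2. The rise was the nucleoporin gene NUP107 (0.62 ± 0.077). On the far sides of the trefoil genes UMODL1 (-0.10), UBASH3A (-0.06) and RSPH1 (-0.12) were not called. Between the hairpins, YEATS4, a chromatin reader gene next to LYZ, differed by -0.90 (adjusted p = 0.00200) and MAZ, a zinc finger gene near ZG16, by 0.65 (adjusted p = 0.00630). The other neighbours of ZG16 lay between -0.23 and 0.04 for the mean of both hairpins.

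**Figure D3:**
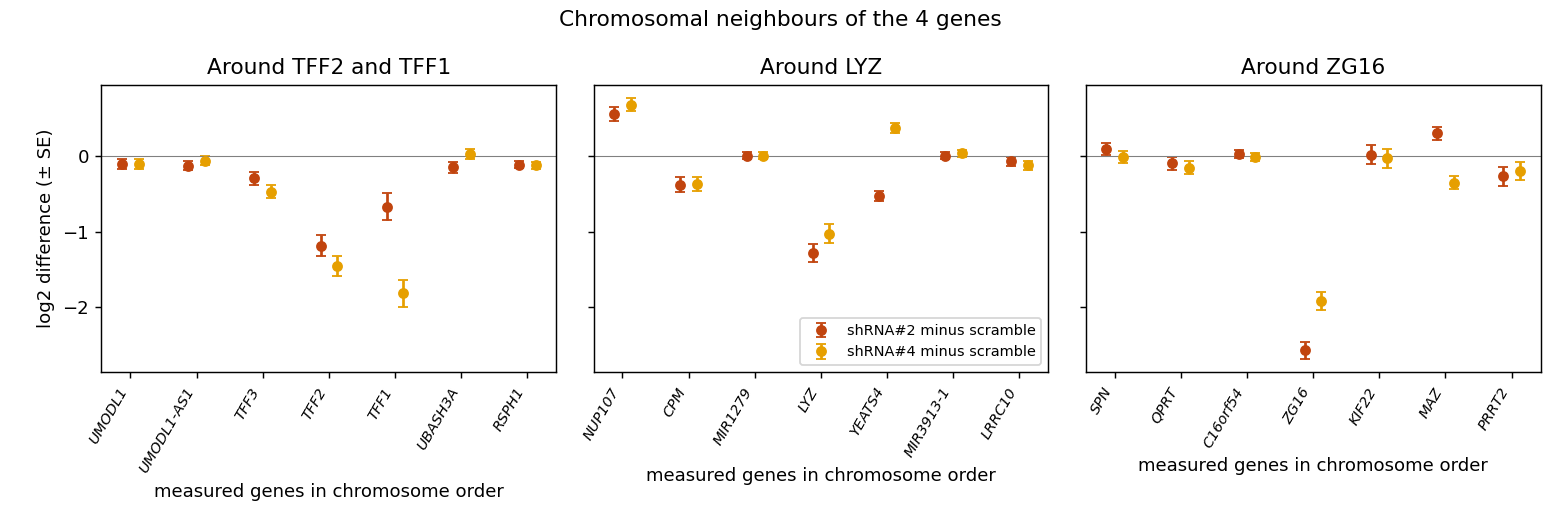
Log2 difference from scramble (vertical axis, points with ± SE) for shRNA#2 and shRNA#4, for the measured genes around TFF2 and TFF1, LYZ and ZG16 in chromosome order, without scale. TFF1, TFF2, LYZ and ZG16 lie at or below -0.67, and the genes beside them lie between -0.53 and 0.68.

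Beside ZG16, TFF1 and TFF2, 24 genes of goblet cells and mucus were measured. Of these 7 fell and 1 rose for the mean of both hairpins, against 10.6% and 14.8% of all genes. Their median difference was -0.01 for the mean, -0.07 with shRNA#2 and -0.13 with shRNA#4, and the medians over all genes lay within 0.01 of 0. SYTL2, an effector of Rab27 in granule exocytosis, fell by 0.80 (-0.80 ± 0.088), the adhesion molecule HEPACAM2 by 1.08 (-1.08 ± 0.29), CREB3L1, a membrane-bound transcription factor of secretory cells, by 0.45 (-0.45 ± 0.10) and the peptide hormone gene GUCA2B, which encodes uroguanylin, by 0.44 (-0.44 ± 0.10). KLK1, TFF3 and FOXA3 also fell, by 0.39, 0.38 and 0.26, and REP15 rose by 0.18. SYTL2 alone of these 8 calls held in every alternative run. Leaving out 1 array gave 2 to 6 falls, 2 of them without replicate 1 of scramble, 3 or 4 without any 1 hairpin array, and 0 rises.

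Several defining goblet genes stayed near 0 and are named here for that reason. Centred values show no level, so whether these genes are expressed in the cells is not known. SPDEF, the transcription factor of goblet cell maturation, stood at 0.01 ± 0.081, CLCA1, a secreted mucus protein, at -0.02 ± 0.043 and ERN2, the secretory isoform of the stress sensor IRE1, at 0.05 ± 0.052. Farther from 0 were FCGBP, a mucin-like mucus protein, at -0.28 ± 0.16 and BCAS1 at -0.60 ± 0.19. Neither was called for the mean of both hairpins. With shRNA#4 alone BCAS1 was lower (-0.92 ± 0.22, adjusted p = 0.0253, limma), and with shRNA#2 alone its -0.28 was not called. The gel-forming mucin genes were not analysed here. With shRNA#2 alone, 4 of the 24 fell and 2 rose, where 9.54% of all genes fell and 12.1% rose. With shRNA#4 alone 4 fell and 1 rose, where 10.4% fell and 15.7% rose.

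**Figure D4:**
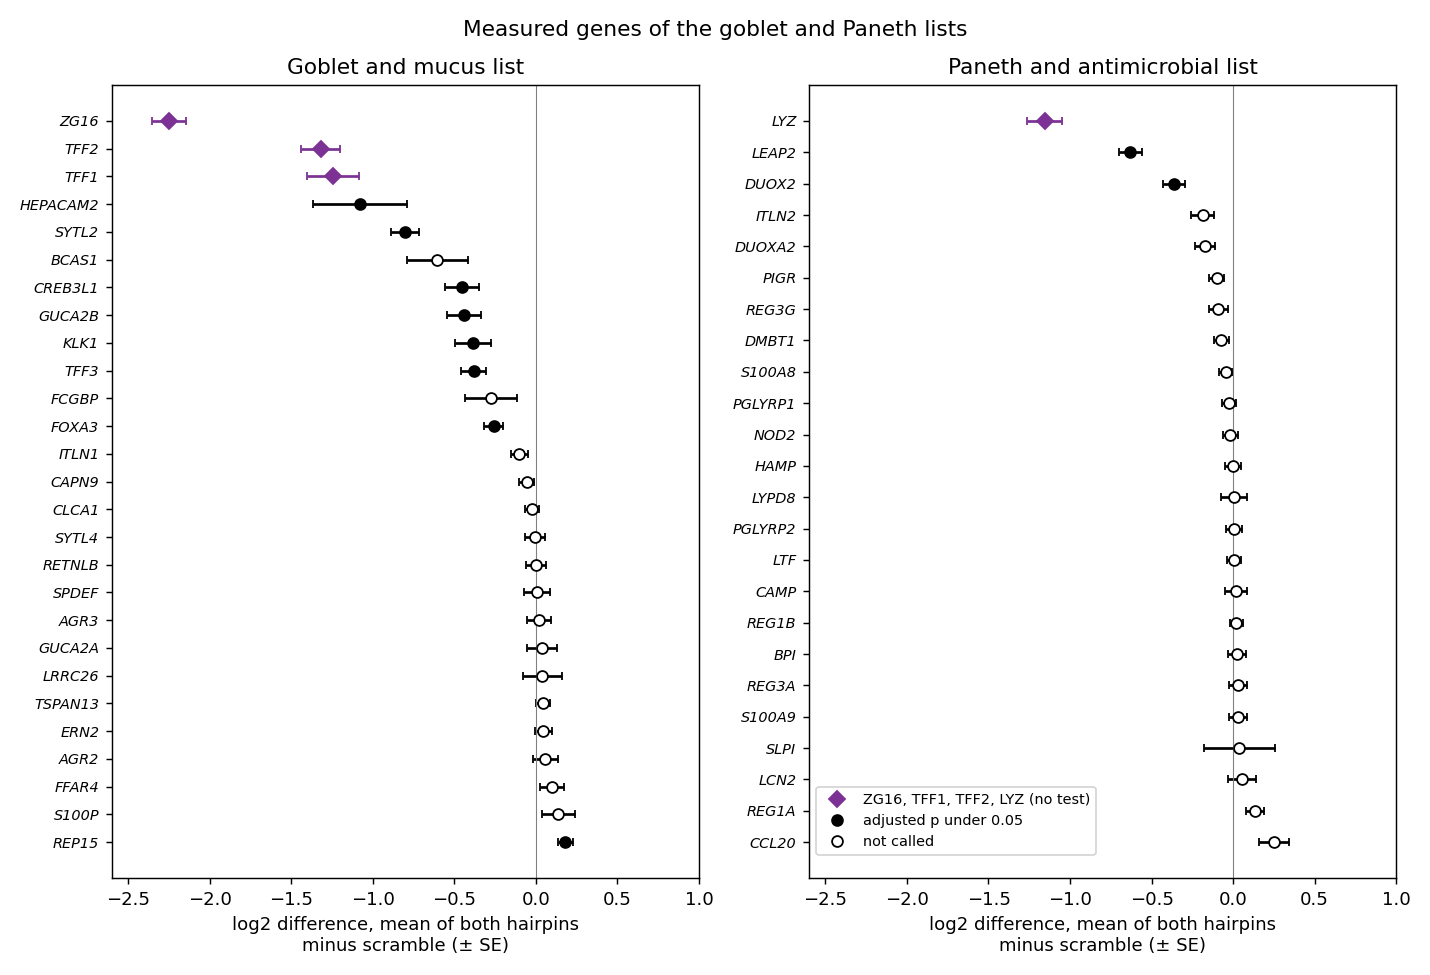
Log2 difference of the mean of both hairpins minus scramble (horizontal axes, points with ± SE) for the measured genes of the goblet and mucus list (left) and of the Paneth and antimicrobial list (right). Diamonds mark ZG16, TFF1, TFF2 and LYZ, which carry no test, and filled circles mark other genes at an adjusted p under 0.05. ZG16, TFF2 and TFF1 are the lowest on the left, and LYZ is the lowest on the right with most of its list near 0.

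Among 23 genes of Paneth cells and antimicrobial defence measured beside LYZ, 2 fell and 0 rose for the mean of both hairpins in limma. An unadjusted p under 0.05 was reached by 6, but the share of all genes at that threshold was not counted. The 2 falls are 8.7% of the list, where 10.6% of all genes fell and 14.8% rose. The median of the 23 was 0.004. LEAP2, an antimicrobial peptide that also blocks the ghrelin receptor, fell by 0.63 (-0.63 ± 0.071) and DUOX2, an oxidase that makes hydrogen peroxide at the apical surface, by 0.36 (-0.36 ± 0.069). Both calls held in every alternative. The Paneth cell lectin REG3A stood at 0.03, the neutrophil proteins S100A8 and S100A9 at -0.05 and 0.03, and the protease inhibitor SLPI at 0.04 ± 0.22. The defensin genes of the list were not analysed here.

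LYZ is also a gene of macrophages and neutrophils, so markers of these cells are given beside it. Of 16 measured, 3 fell and 0 rose for the mean of both hairpins, where 10.6% of all genes fell and 14.8% rose. In limma 7 had an unadjusted p under 0.05, a threshold at which all genes were not counted. CD68, a lysosomal membrane protein, fell by 2.01 (-2.01 ± 0.17), LAPTM5, also lysosomal, by 0.77 (-0.77 ± 0.13), and the receptor gene CSF1R by 0.31 (-0.31 ± 0.053), whose call ended without replicate 2 of scramble. The monocyte receptor gene CD14 lay at 0.34 ± 0.098 and was not called. The median of the 16 was -0.01 in both shRNA#2 arrays and -0.01 in both shRNA#4 arrays, against 0.003 and 0.02 with scramble. Centred values show no level, so which of these markers are present at all cannot be read from them, and their part in the LYZ result was not tested.

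TFF1 and TFF2 are genes of gastric mucous cells, and 17 further gastric genes were measured. GATA4, a transcription factor of foregut and small intestine, fell by 0.56 (-0.56 ± 0.051), TSPAN8 fell by 0.26 (-0.26 ± 0.071), and SOX2, a transcription factor of stomach and oesophagus, rose by 0.84 (0.84 ± 0.18), so 2 of 17 fell and 1 rose, against 10.6% and 14.8% of all genes. The call of SOX2 ended without replicate 1 of scramble, and that of TSPAN8 without either scramble array and without any hairpin array but replicate 1 of shRNA#4. Both calls also ended after quantile normalization (adjusted p = 0.0598 for SOX2 and 0.0549 for TSPAN8) and with every probe set tested (0.0502 and 0.0831). The median of the 17 was 0.003. In the epithelial and enterocyte list 10 of 16 measured genes fell and 0 rose for the mean of both hairpins. Of all genes 10.6% fell and 14.8% rose. In limma 11 of the 16 had an unadjusted p under 0.05, a threshold at which all genes were not counted. The median was -0.44, and 7 to 9 fell without 1 array, 7 of them without replicate 2 of scramble. The lactase gene LCT (-2.13), the sucrase-isomaltase gene SI (-1.49) and the keratin gene KRT20 (-1.19) were among them. The other genes of the list were not called, the highest at 0.30. The falls of ZG16, TFF1, TFF2 and LYZ, for which they were chosen, stood beside these falls of absorptive cell genes. The list was also chosen with earlier results known, and its part in the falls of the 4 genes was not tested.

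The share of other goblet genes called between the hairpins in either direction was close to that of all genes, but the calls lay in 1 direction. Of the 24 goblet and mucus genes other than ZG16, TFF1 and TFF2, 4 were higher with shRNA#2 and 0 lower. In limma 6 had an unadjusted p under 0.05, a threshold at which all genes were not counted. The 4 called are 16.7% of the 24, against 15.3% of all genes called in either direction. By direction, 6.64% of all genes were higher with shRNA#2 and 8.63% lower. AGR2, a disulfide isomerase needed for mucin production, stood at 0.44 and 0.25 with shRNA#2, against -0.18 and -0.28 with shRNA#4, a difference of 0.57 (adjusted p = 0.0108). Its paralog AGR3 differed by 0.50 (0.0133), the fatty acid receptor gene FFAR4 by 0.63 (0.00721) and CREB3L1 by 0.51 (0.0379). These 4 had the direction of TFF1 in this contrast, not in all differences from scramble. With shRNA#2, AGR2 and FFAR4 stood above scramble (0.34 and 0.41), while CREB3L1 (-0.19) and TFF1 (-0.67) stood below it. Without replicate 1 of shRNA#2 or replicate 2 of shRNA#4, 1 of the 4 calls was left, and FFAR4 alone held in every alternative.

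**Figure D5:**
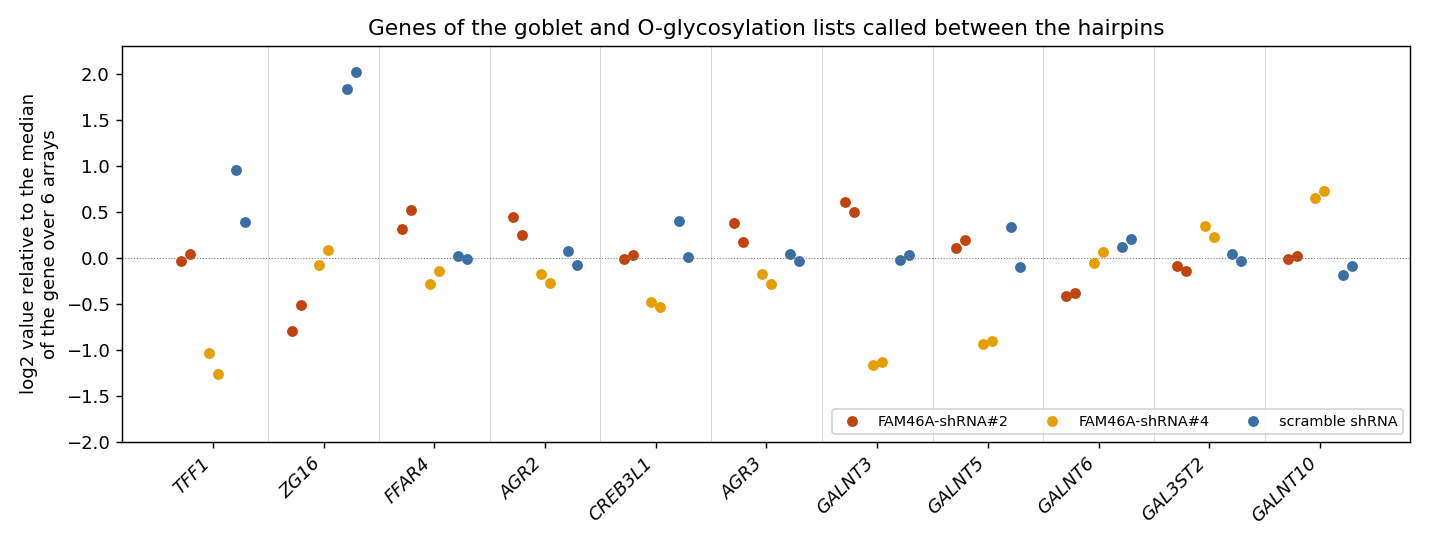
Log2 values relative to the median over 6 arrays (vertical axis) for TFF1, ZG16 and the other genes of the goblet and O-glycosylation lists called between the hairpins, with 1 point per array and colours for shRNA#2, shRNA#4 and scramble. Genes with the shRNA#4 arrays lowest include TFF1, AGR2, FFAR4, CREB3L1, GALNT3 and GALNT5, and those with the shRNA#2 arrays lowest include ZG16 and GALNT6.

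Of 17 measured genes of mucin-type O-glycosylation 2 were higher and 3 lower with shRNA#2 than with shRNA#4, against 6.64% and 8.63% of all genes. They include 4 of the GALNT genes, whose enzymes attach the first sugar, and the other GALNT genes were not called. GALNT3 stood at 0.60 and 0.50 with shRNA#2, against -1.17 and -1.13 with shRNA#4, a difference of 1.70 (adjusted p = 0.00111). GALNT5 differed by 1.07 (0.00599) in the same direction, and GALNT10 by -0.68 (0.00264), GALNT6 by -0.40 (0.0110) and the sulfotransferase gene GAL3ST2 by -0.41 (0.00970) in the other. The first 3 of these calls held in every alternative. Those of GALNT6 and GAL3ST2 ended without either shRNA#2 array, and that of GALNT6 also without replicate 2 of shRNA#4.

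The genes most like each of the 4 were found by the root mean square difference of their 6 centred values. Nearest to ZG16 were SUSD2 (0.30), the epithelial gene PHGR1 (0.30), REEP6, which shapes the endoplasmic reticulum (0.32), the motilin gene MLN (0.34) and the lactase gene LCT (0.35). Nearest to TFF1 were the prothrombin gene F2 (0.28), FAXDC2 (0.29), the hexokinase-like HKDC1 (0.30), the lysosomal chloride transporter subunit OSTM1 (0.31) and the Golgi protein GOLIM4 (0.325). F2 stood at -0.09 and 0.09 with shRNA#2 and -0.76 and -0.72 with shRNA#4, against 0.78 and 0.61 with scramble. The order is that of TFF1, which the choice of F2 by nearness to the 6 values of TFF1 makes likely.

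TFF2, and LYZ with its 2 probe sets averaged, had closer matches. The probe sets of LYZ lay 0.56 from each other, farther than the matches below lay from their average. Genes nearest to each probe set alone were not sought. Nearest to TFF2 were complement factor B (CFB, 0.10), the mitochondrial sulfurtransferase TST (0.11), the B7 family gene HHLA2 (0.12), TXNIP, which inhibits thioredoxin (0.12), and the carnitine acetyltransferase CRAT (0.12). Nearest to LYZ were the ornithine aminotransferase OAT (0.062), the GABA transaminase ABAT (0.070), NEURL2 (0.11), DGAT2, which makes triglycerides (0.12), and the prolidase PEPD (0.12). OAT stood at -0.31 and -0.23 with shRNA#2 and at 0.01 and -0.01 with shRNA#4, against 0.88 and 1.07 with scramble. By Pearson correlation over the 6 arrays, which leaves out the size of the changes, 2 of these 20 genes were again among the nearest 5.

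Other genes lay nearer to each of the 4 than the other 3 did. With the probe sets of LYZ averaged, the closest pair was TFF2 and LYZ, at 0.34, and 166 other genes lay nearer to TFF2 than LYZ did. TFF1 and TFF2 were 0.60 apart, with 352 genes nearer to TFF1 than its neighbour. ZG16 and TFF1 were the farthest apart, at 1.08. The nearest partner of LYZ depended on the probe set: the first lay 0.33 from ZG16 and 0.47 from TFF2, and the second 0.85 from ZG16 and 0.41 from TFF2.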

How the data were processed

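Per the labels' protocols, biotin-labelled sense-strand DNA was prepared from 100 ng of total RNA with the WT PLUS kit. The authors deposited values of 48144 probe sets on 6 arrays, 0 of them missing. The values themselves show that each probe set had been centred on its own median (all medians within 1e-06 of 0). The labels name neither software nor normalization nor the logarithm, so reading the deposited values as log2 is an assumption.

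Probe sets were named by Entrez ID through the platform table and RefSeq: 16098 had 1 symbol, 0 several and 32046 none, which gave 14884 genes. In 779 genes several probe sets were averaged. Limma 3.58.1 (R 4.3.3) was fitted to all 6 arrays and 3 groups, with moderated variances (residual degrees of freedom 3, prior 3.09). P-values were adjusted over all genes by Benjamini-Hochberg, with calls at an adjusted p under 0.05. Counts at an unadjusted p under 0.05 are given for lists only, with no share of all genes beside them. How the cultures of a group were kept apart is not given, so p-values reflect only the spread among these samples, which may be technical.

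The 4 genes and all gene lists were chosen with earlier results of these data known. List genes were first picked as the 5 with the largest change for the mean of both hairpins and up to 2 called between the hairpins. Not all of these are printed, among them CCL20, ITLN2 and DUOXA2 of the Paneth list and APOA4, APOA1 and ANPEP of the epithelial list. Every measured relative, 3 neighbours on each side, and the 5 genes with the nearest pattern were also taken. Further list genes, and those printed to show members near 0, were chosen after their values were seen. Alternatives were 2 other scalings, a replicate block, a robust prior, array weights, single probe sets, only the arrays compared, and each array left out in turn. The fit was tested on simulated data. Figures used matplotlib 3.10.9.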

Additional observations from a re-analysis of the deposited data

Results flagged for a closer look

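ZG16 and TFF1 differed between shRNA#2 and shRNA#4 by the test of that difference. The difference was -0.66 for ZG16 (shRNA#2 minus shRNA#4, log2, adjusted p = 0.0172, limma) and 1.15 for TFF1 (adjusted p = 0.0118). Both shRNA#2 arrays lay below both shRNA#4 arrays in ZG16 and above them in TFF1. Groups of 2 arrays allow no check for an outlying array.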

How the results depend on the processing

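No difference against scramble of ZG16, TFF1, TFF2 or LYZ changed sign under any alternative run. Quantile normalization brought the mean of both hairpins to -1.77 for ZG16, -0.98 for TFF2 and -0.91 for LYZ, shRNA#2 against scramble to -2.15, -0.84 and -1.07, and shRNA#4 against scramble to -1.39, -1.12 and -0.74, and it called LYZ between the hairpins (-0.33, adjusted p = 0.0498, limma). The cause was not tested. The LYZ probe set of larger spread alone gave -1.68, -1.93 and -1.42 in the same order of comparisons. Without 1 array, the mean of both hairpins ran from -1.34 to -0.97 for LYZ, from -1.53 to -0.96 for TFF1 and from -1.53 to -1.11 for TFF2. For shRNA#2 against scramble these ranges were -1.47 to -1.10, -0.95 to -0.38 and -1.40 to -0.98, and for shRNA#4 against scramble -1.21 to -0.84, -2.10 to -1.54 and -1.67 to -1.25. Between the hairpins TFF1 ran from 1.04 to 1.27 and ZG16 from -0.80 to -0.51. Genes called without 1 array numbered 2477 to 3358 for the mean of both hairpins (3784 with all arrays), 1756 to 2982 for shRNA#2 (3220) and 761 to 2166 between the hairpins (2272). With every probe set tested, 6141 were called for the mean and 6300 for shRNA#4 (3884 genes), by construction among more features. Same-numbered arrays share only a number in the labels. Their replicate differences correlated across genes at 0.199 (shRNA#2 and shRNA#4), 0.179 and 0.119 (each with scramble), and with a replicate block 4160 genes were called for the mean of both hairpins, 3598 for shRNA#2, 4227 for shRNA#4 and 2637 between the hairpins, where TFF1 kept 1.15 (adjusted p = 0.00733) and ZG16 -0.66 (0.00337). With the block 5 of the 24 other goblet genes were higher and 2 lower between the hairpins (4 and 0 without it), and 2 in place of 1 of the 8 relatives fell for the mean of both hairpins. Another background correction, a filter on dim probe sets and a block for slide or scan were not run, since the values are centred and name no slide. Signal over background is not known, so no probe set was left out for low signal.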

Other observations

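Genes of granule exocytosis and of the secretory lineage moved both ways. Of 28 measured exocytosis genes 7 fell and 7 rose for the mean of both hairpins, against 10.6% and 14.8% of all genes. VAMP7 and VAMP8, vesicle SNARE proteins, fell by 0.68 (-0.68 ± 0.063) and 0.45 (-0.45 ± 0.055), while the Rab27 effectors EXPH5 and SYTL5 rose by 0.87 ± 0.059 and 0.86 ± 0.10. Without 1 array 3 to 5 fell and 2 to 5 rose, the fewest falls without replicate 1 of scramble or replicate 2 of shRNA#2 and the fewest rises without replicate 2 of scramble. Of 31 measured regulators of the secretory and intestinal lineages 7 fell and 3 rose, against the same 10.6% and 14.8% of all genes. SOX4 rose by 0.82 ± 0.125, FOXA2 by 0.60 ± 0.065 and the receptor gene NOTCH2 by 0.36 ± 0.050, while KLF5 fell by 0.35 (-0.35 ± 0.060) and the intestinal transcription factor gene CDX2 by 0.26 (-0.26 ± 0.065). The KLF5 call ended without replicate 1 of scramble, and the CDX2 call without replicate 2 of scramble and without 3 of the 4 hairpin arrays. The falls numbered 2 to 5 without 1 array, the fewest without replicate 1 of shRNA#2. JAG1, a Notch ligand, was higher with shRNA#2 than with shRNA#4 by 0.78 (adjusted p = 0.00844, limma), a call that ended without replicate 1 of shRNA#2 or replicate 2 of shRNA#4.

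Of 17 measured genes of mucin-type O-glycosylation 7 fell and 3 rose for the mean of both hairpins, where 10.6% of all genes fell and 14.8% rose. FUT2, the fucosyltransferase that sets secretor status, fell by 0.93 (-0.93 ± 0.061), GALNT1 by 0.44 (-0.44 ± 0.080), and GALNT7 rose by 0.70 ± 0.064. GALNT3 fell for the mean (-0.30), yet it stood 0.55 above scramble with shRNA#2 and at -1.15 against scramble with shRNA#4. Of 17 measured enteroendocrine genes 1 fell and 1 rose, where 10.6% and 14.8% of all genes did. MLN fell by 1.70 (-1.70 ± 0.12). NTS rose by 0.20 ± 0.045, a call that ended without either scramble array or either shRNA#2 array. Of 9 fibroblast and endothelial markers 2 rose and 1 fell, where 14.8% and 10.6% of all genes did, and the fall was lost without any 1 array but replicate 1 of shRNA#4. TAGLN stood at -0.23 with shRNA#2 and 1.11 with shRNA#4, both against scramble. Of 11 tuft and basal cell markers 0 were called in limma for the mean of both hairpins, where 25.4% of all genes were. Among these 11, 0 had an unadjusted p under 0.05, a threshold at which all genes were not counted. Whether these markers are expressed in the cells cannot be read from centred values.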
